A study of Mus musculus with 6 samples.

Results

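Acyl-CoA thioesterases split fatty acyl-CoA into a free fatty acid and coenzyme A. Their genes were measured in AML-12 cells, a hepatocyte line from mice that carry a human TGF-alpha transgene, with less manganese superoxide dismutase (MnSOD), the mitochondrial enzyme that Sod2 encodes. The 10 genes were chosen by name from the Acot family, out of 19938 genes with a probe set of 1 gene symbol on the Affymetrix Mouse Gene 1.0 ST array. Where a gene has several probe sets the brightest over all 6 arrays would stand for it, but each of the 10 has exactly 1, so no measured level decided which probe set was used. The family was taken up with the fall of Acot2 in these data already known, so its difference is given as a description and its p-value is no independent evidence.

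One group, called siMnSOD, carried a retroviral hairpin against MnSOD made for low-level silencing, and the other, siScramble, a hairpin of scrambled sequence that recognizes no gene. Both are stable lines from wild-type AML-12 cells infected in the same way and selected with puromycin for 2 weeks, and neither received any other treatment. Each group has 3 arrays titled as biological replicates 1 to 3, taken from different frozen batches of cells. No source says that the replicates came from separate infections, so p-values measure only the spread between these samples.

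Type I thioesterases (Acot1 to Acot6 in the mouse) form a gene cluster on chromosome 12 and share an alpha/beta hydrolase fold, whereas the type II enzymes have a hotdog fold and lie on several chromosomes. Members sit in the cytosol, the mitochondrial matrix or the peroxisome, where they set the balance of acyl-CoA, free fatty acid and coenzyme A. In mouse liver the type I genes are known targets of PPARalpha, the fatty acid-sensing nuclear receptor that fasting activates.

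Acot2 and Acot1 lie next to each other in that cluster and encode closely similar enzymes, the first mitochondrial and the second cytosolic. Only Acot2 of the 10 genes passed the test across all genes, so the stretches around the starts of both genes are shown. They run from 250 bases before to 50 after the annotated start on the plus strand, from RefSeq on build GRCm38.p6, at chr12:83987611-83987910 for Acot2 and chr12:84009252-84009551 for Acot1. Capitals mark the CCAAT box, read on either strand.
Acot2: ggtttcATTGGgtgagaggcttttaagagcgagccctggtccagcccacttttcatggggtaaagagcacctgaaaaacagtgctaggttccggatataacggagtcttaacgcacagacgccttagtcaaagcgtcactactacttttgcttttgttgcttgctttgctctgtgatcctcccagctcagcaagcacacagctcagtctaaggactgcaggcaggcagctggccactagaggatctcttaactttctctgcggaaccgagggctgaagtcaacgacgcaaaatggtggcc
Acot1: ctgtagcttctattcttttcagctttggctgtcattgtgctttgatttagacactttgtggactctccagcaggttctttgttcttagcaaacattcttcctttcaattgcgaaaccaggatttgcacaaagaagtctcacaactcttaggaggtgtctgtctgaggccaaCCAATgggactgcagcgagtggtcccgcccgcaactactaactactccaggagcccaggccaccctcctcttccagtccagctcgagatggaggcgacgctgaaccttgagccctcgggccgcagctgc
The longest run of bases common to both windows was 9. CCAAT was found in 37.4% of all 32851 promoter windows and in 8 of the 11 windows of the thioesterase genes. By gene it was found for 7 of the 9 that have a window. The half-site AGGTCA of nuclear receptors, in 16.3% of all windows, was in 3 of the 11, those of Acot3 and Acot4, and in neither window above. The direct repeat AGGTCANAGGTCA, the letters of an ideal PPAR response element, was in 0.0396% of all windows and in none of the 11 windows of these genes. The element TGATGNAA, which C/EBP and ATF factors can bind, was in 3.97% of all windows and also in none of the 11. Both strands were searched throughout, AGGTCA lies within the direct repeat, and a missing match says only that these letters are not in the window.

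Acot2 was the thioesterase gene that fell. Its probe set read 121, 143 and 142 intensity units in siMnSOD replicates 1, 2 and 3, and 623, 658 and 585 in the siScramble replicates. The groups did not overlap, and the highest siMnSOD array was far under the lowest control. The mean was 135 ± 12.7 (SD, n = 3) in siMnSOD and 622 ± 36.4 (SD, n = 3) in siScramble. As a ratio of geometric means Acot2 was 4.61-fold lower (95% interval 3.81 to 5.57), a log2 difference of −2.20 (SE 0.12, limma adjusted p = 0.00105). Among 19938 genes this was the 15th most negative difference and the 6th smallest p. In bulk RNA, fewer cells that make a transcript and less of it per cell cannot be told apart.

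The fall of Acot2 was of like size in every pair of same-numbered arrays. Acot2 kept 19.4%, 21.7% and 24.3% of the control level in replicates 1, 2 and 3, whereas the targeted gene Sod2 kept 39.8%, 47.8% and 17.8%. Sod2 itself read 98.8, 121 and 52.3 units in siMnSOD and 248, 254 and 293 in siScramble, and every siMnSOD array was below every control (log2 difference −1.63, SE 0.30, limma adjusted p = 0.0369). The Sod2 call ended without replicate 1 or 2 of either group (adjusted p up to 0.133), after centring arrays on their medians (0.0688) and with every probe set tested (0.0631). Replicate 3 had the least Sod2 left, and the most Acot2 left, of the 3 pairs. Acot2 passed with an adjusted p of 0.0183 or less whichever array was left out.

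**Figure D1:**
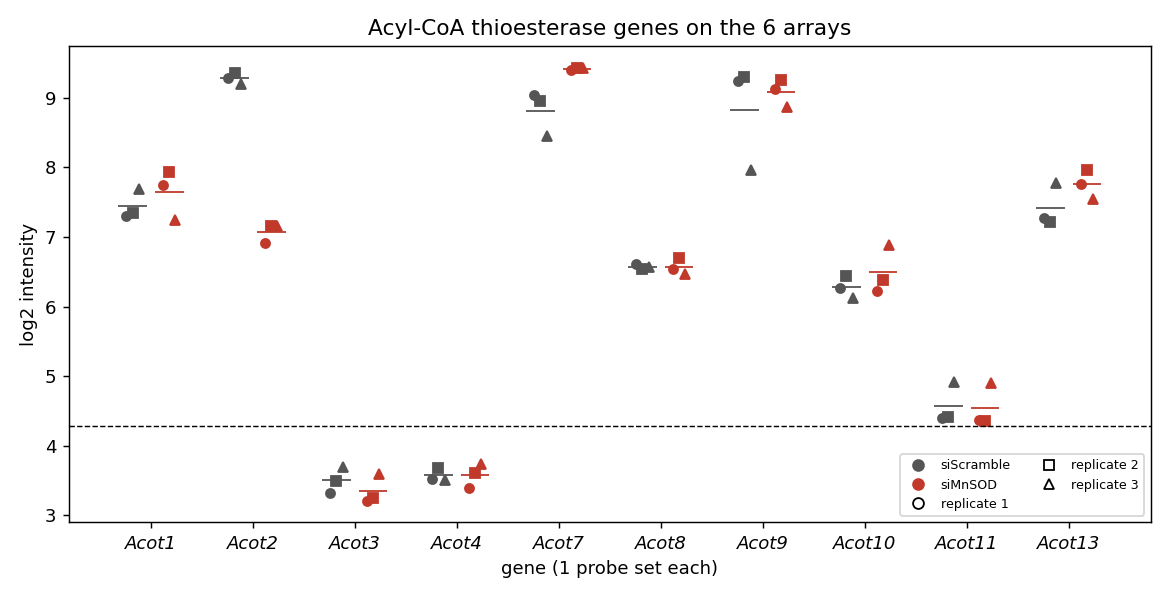
Log2 intensity of the 10 thioesterase genes on each of the 6 arrays (gray, siScramble; red, siMnSOD; circle, square and triangle for replicates 1, 2 and 3; horizontal lines are group means). The dashed line is a guide to background at 4.28, and Acot2 and Acot7 are the genes whose groups do not overlap.

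The other type I members did not pass. Acot1, whose cytosolic enzyme acts on long-chain acyl-CoA, read 215, 246 and 151 units in siMnSOD and 158, 163 and 207 in siScramble. The groups overlapped because replicate 3 ran the other way: it was the lowest siMnSOD array and the highest control array. The fitted log2 difference was 0.20 (95% interval −0.29 to 0.69, adjusted p = 0.89 in limma), and within replicate numbers 1, 2 and 3 it was 0.45, 0.59 and −0.45. Leaving out single arrays moved it between 0.05 without siMnSOD replicate 2 and 0.40 without siMnSOD replicate 3. The closeness of Acot1 and Acot2 in sequence means that each probe set may take some signal from the other transcript, which was not tested. The log2 signal of Acot2 minus that of Acot1 on the same array was −0.84, −0.78 and −0.09 in siMnSOD and 1.98, 2.01 and 1.501 in siScramble. These do not overlap, and the gap shifted by −2.40 between the groups, so the 2 neighbouring genes changed unequally on every pair of arrays.

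Acot3 and Acot4, which encode peroxisomal enzymes, read under background on every array. Acot3 lay between 9.26 and 13.0 units and Acot4 between 10.4 and 13.4 on the 6 arrays, all under a guide to background of 19.4 units. The guide is the 95th percentile of the levels of 1027 olfactory receptor genes, a family taken as mostly silent in these cells, which was not tested. Their log2 differences of −0.16 (95% interval −0.52 to 0.21) and 0.01 (−0.30 to 0.31) therefore say little about their RNA. The remaining cluster genes Acot5 and Acot6, also of the peroxisome, were under that guide too, at most 10.1 and 18.1 units.

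Among the type II genes Acot7 had the smallest p and was the one whose groups did not overlap. Acot7, the cytosolic brain acyl-CoA hydrolase, read 674, 692 and 691 units in siMnSOD and 525, 494 and 349 in siScramble. Every siMnSOD array was above every control, and the controls were spread more widely, with SDs of 9.98 and 94.2 units. The ratio was 1.53 (95% interval 1.16 to 2.01), a log2 difference of 0.61 (SE 0.17). It did not pass over all genes (adjusted p = 0.112 in limma, unadjusted p = 0.00844). The lowest control, replicate 3, weighed on that outcome: without it the difference was smaller, at 0.43, but the spread was too, and the adjusted p was 0.0393. The groups did not overlap for 2 of the 10 members, Acot2 and Acot7, while this held for 20.9% of all genes.

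Acot13, a small mitochondria-associated thioesterase that binds the phosphatidylcholine transfer protein, had the replicate pattern of Acot1. It read 218, 250 and 186 units in siMnSOD and 154, 149 and 219 in siScramble, with replicate 3 again the lowest siMnSOD and the highest control array. The log2 difference was 0.34 (95% interval −0.11 to 0.79, adjusted p = 0.507 in limma), made of 0.50, 0.75 and −0.24 within replicate numbers. Without siScramble replicate 3 it was 0.52 (adjusted p = 0.0772). Over the 6 arrays Acot1 and Acot13 correlated at r = 0.88. This describes arrays that share their replicate numbers and groups and is not a test.

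The mitochondrial members Acot9 and Acot10 had their main difference in replicate 3. Acot9 read 557, 614 and 466 units in siMnSOD and 603, 629 and 249 in siScramble, where replicate 3 was the lowest of all 6. Acot10, a mouse gene closely related to Acot9, read 74.9, 83.2 and 118 units in siMnSOD and 76.9, 87.0 and 69.4 in siScramble, and here the siMnSOD replicate 3 stood highest. Their differences within replicate numbers were −0.11, −0.04 and 0.90 for Acot9 and −0.04, −0.07 and 0.76 for Acot10. The fitted values of 0.25 (95% interval −0.59 to 1.10) and 0.22 (−0.23 to 0.67) did not pass, with adjusted p of 0.965 and 0.8 in limma, and both turned negative when replicates 1 and 2 alone were fitted (−0.07 and −0.05).

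Acot8 and Acot11 had fitted differences near 0. Acot8, the broad peroxisomal type II enzyme, lay between 88.7 and 104 units on all arrays, with a log2 difference of −0.0002 (95% interval −0.25 to 0.25), the narrowest interval of the 10 genes. Acot11, also named Them1 and known from brown fat, was dim. On the log2 scale it read 4.36, 4.36 and 4.91 in siMnSOD and 4.398, 4.42 and 4.92 in siScramble, against a background guide of 4.28. Replicate 3 was the highest array of both groups. Its difference was −0.03 (95% interval −0.53 to 0.47).

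**Figure D2:**
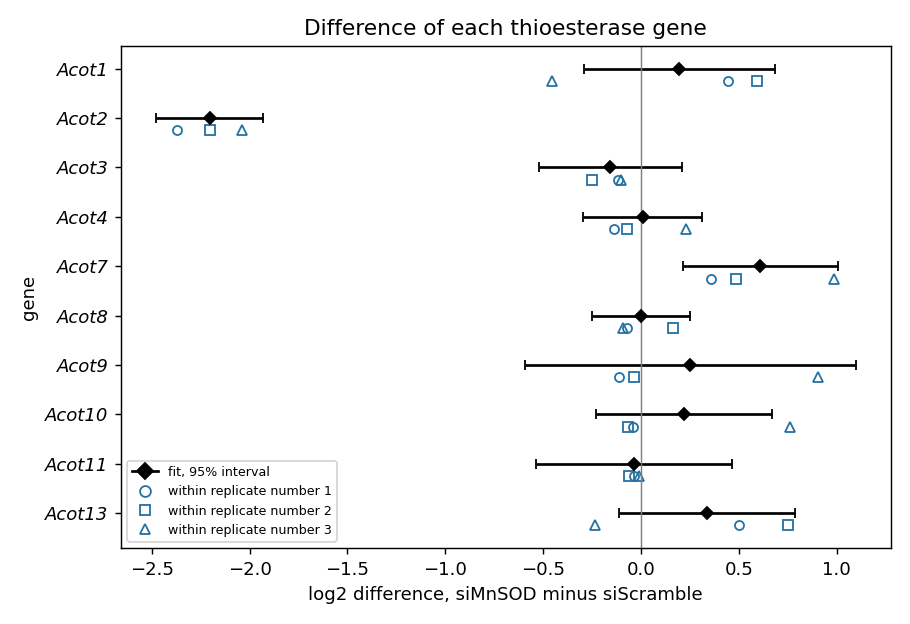
Log2 difference, siMnSOD minus siScramble, of each gene: the fitted value with its 95% interval (black diamond and bar) and the differences within replicate numbers 1, 2 and 3 (open symbols). The 3 Acot2 pairs lie together between −2.37 and −2.04, whereas replicate 3 falls on the other side of 0 from replicates 1 and 2 for Acot1, Acot4, Acot9, Acot10 and Acot13.

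Counted together, 1 of the 10 genes fell and none rose at an adjusted p under 0.05 in limma, and 2 had an unadjusted p under 0.05, against 16.7% of all genes. At the adjusted threshold 3.75% of all genes were called, 2.17% higher and 1.58% lower. The median log2 difference was 0.10 over the 10 genes and 0.01 over all genes. A fit with replicate numbers as a block also called 1 of the 10, against 7.14% of all genes. A count of 1 among 10 that includes the gene known beforehand gives no finding about the family.

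Replicate 3 stood apart in both groups and set the outcome for several members. Across all 35557 probe sets replicates 1 and 2 correlated at 0.992 in siMnSOD and 0.993 in siScramble on the log2 scale, and replicate 3 correlated with them at 0.984 to 0.985 and at 0.976. With replicates 1 and 2 alone, an alternative added after seeing the data, Acot1 (0.52), Acot7 (0.42) and Acot13 (0.63) rose beside the fall of Acot2 (−2.29), with adjusted p of 0.0151, 0.0153 and 0.0092. That fit called 21.4% of all genes, so 4 of 10 is to be read against a much higher background. With all arrays, down-weighting replicate 3 by limma's array weights also called 4 of the 10, 3 higher and 1 lower, against 23.4% of all genes.

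The cell line carried some but not all hepatocyte markers. Krt8, Krt18, Hnf4a, Foxa2 and Apob were well above background on all arrays, but Alb, Ttr and Cps1 were under it on every array. The summed intensity of the 12 measured hepatocyte markers was 14534 to 17078 in siMnSOD and 9145 to 14357 in siScramble. Krt8 alone made 7743 to 8926 and 4376 to 6504 of these units. The list had 1 called member, Hnf4a (1.09), or 2 with Krt8 under the replicate block. Over all genes these fits called 3.75% and 7.14%. Hnf4a lost its call without siMnSOD replicate 1 (adjusted p = 0.0647) or 2 (0.0801) or siScramble replicate 2 (0.0641). The 8 macrophage and leukocyte markers summed to 145 to 160 and 156 to 176 units, the 6 endothelial ones to 91.4 to 118 and 91.0 to 113, and the 8 stellate cell and fibroblast ones to 188 to 230 and 200.4 to 227. Ptprc, Adgre1, Pdgfrb and Kdr were under background on every array, and in all 5, 2 and 3 members of these lists were. Cd68, Csf1r and Cd3e of the first list and Des, Col1a1 and Col1a2 of the third were above it on every array, at mean log2 levels of 4.73 to 5.87. None of these 3 lists had a called gene, or a gene with an unadjusted p under 0.05, in limma. Of 5 biliary markers Sox9 fell (−0.86), though not without replicate 1 or 2 of either group (adjusted p 0.0736 to 0.146). Krt19 (0.70, adjusted p = 0.186) and Krt7 (1.15, adjusted p = 0.381) had positive differences and groups that did not overlap, as 20.9% of all genes did. Their differences were widest in replicate 3, at 1.40 and 2.26. Epcam and Cftr were under background on every array. The biliary sum was 3902 to 4189 in siMnSOD against 1912 to 3300 in siScramble, of which Krt19 alone made 2669 to 3138 and 1191 to 2166. Any part of these marker values in the thioesterase results was not tested.

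None of the genes beside the cluster passed as Acot2 did. Of the 10 tested genes on each side in annotation order, none was called in limma, against 3.75% of all genes. At an unadjusted p under 0.05, 3 were lower and none higher, or 3 of 20 against 16.7% of all genes. These were Mideas (−0.89, SE 0.22, adjusted p = 0.0875), a chromatin deacetylase complex gene, Rbm25 (−0.55, SE 0.15, adjusted p = 0.11), a splicing factor gene, and Sipa1l1 (−0.35, SE 0.10, adjusted p = 0.125), all named after their values were seen. Mideas passed with the replicate block (adjusted p = 0.0447) and without siScramble replicate 3 (0.0028). The 20 differences ranged from −0.89 to 0.33 with a median of −0.14, and 15 were negative. Over all genes the median was 0.01, and 10421 of 19938 differences were positive. This lean of the neighbours was not tested. The gene next to Acot2 on the outer side, Riox1, had −0.12 (SE 0.17), and Acot1 on the inner side had the 0.20 given above.

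**Figure D3:**
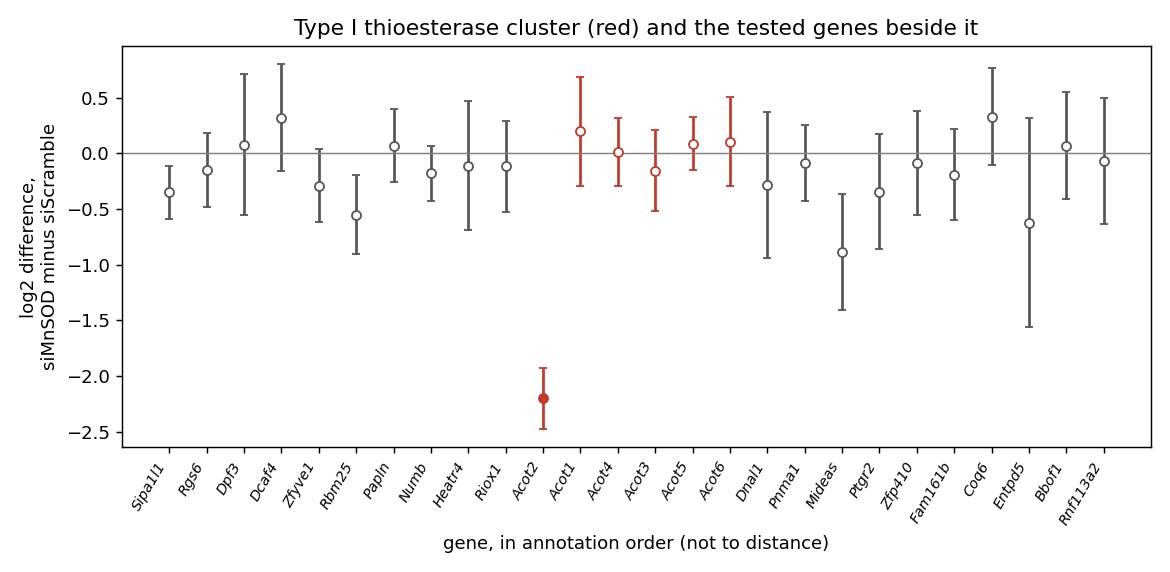
Log2 difference with 95% interval for the 6 genes of the type I cluster (red) and 10 tested genes on each side (gray), in the order of the annotation. Filled points passed an adjusted p of 0.05 in limma, which only Acot2 did, at −2.20.

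Thioesterases outside the 10 included 1 rise. Of 17 other genes of this activity or fold, 1 rose and none fell in limma, against 2.17% and 1.58% of all genes. At an unadjusted p under 0.05, 2 were higher and none lower (16.7% of all genes in either direction). Them6, a thioesterase superfamily member by sequence, read 323, 345 and 313 units in siMnSOD and 181, 160 and 120 in siScramble. The groups did not overlap, as for 20.9% of all genes, and the log2 difference was 1.11 (SE 0.17, adjusted p = 0.0196). The call ended without siMnSOD replicate 1 (adjusted p = 0.0797) or 2 (0.112) or siScramble replicate 2 (0.0843). Abhd17a, a depalmitoylase gene, had 0.61 (SE 0.16, adjusted p = 0.103, or 0.0285 without siMnSOD replicate 3), and Them4, a mitochondrial thioesterase gene, −0.43 (SE 0.26, adjusted p = 0.564). Without siScramble replicate 3 Them4 passed at −0.72 (adjusted p = 0.039), and without siScramble replicate 1 it was −0.25. The other 8 above background (Ppt1, Ppt2, Lypla1, Lypla2, Abhd17b, Abhd17c, Mcat and Hibch) lay between −0.20 and 0.41.

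Enzymes that make acyl-CoA, the opposite reaction, included 2 falls. Of 17 measured acyl-CoA synthetase genes 2 fell and none rose in limma, against 1.58% lower and 2.17% higher of all genes. The list median was 0.02, and 3 genes were higher and 2 lower at an unadjusted p under 0.05 (16.7% of all genes). On all arrays 9 of the 17 were above background and 6 under it, and the median was 0.14 when only rows above background were fitted. Acsbg1, a long-chain acyl-CoA synthetase of the bubblegum family, read 309, 280 and 311 units in siMnSOD and 561, 559 and 570 in siScramble, a log2 difference of −0.91 (SE 0.10, adjusted p = 0.00809). Acsl4, which prefers arachidonic acid, read 927, 647 and 766 against 1407, 1495 and 1378 units, a difference of −0.89 (SE 0.15, adjusted p = 0.0277). Both genes had every siMnSOD array below every control, and 20.9% of all genes had groups that did not overlap. Acsbg1 lost its call without siMnSOD replicate 2 (adjusted p = 0.0629) or siScramble replicate 2 (0.0502). Acsl4 lost it without siMnSOD replicate 2 or 3 or siScramble replicate 1 or 2 (0.0683 to 0.13), after centring arrays on their medians (0.0598) and with every probe set tested (0.0505). Slc27a4, next by p, had 0.42 (SE 0.11, adjusted p = 0.102 in limma, or 0.0326 without siScramble replicate 3).

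Genes for coenzyme A itself, which thioesterases release, moved in both directions. Of 15 measured genes of its synthesis and breakdown, 2 rose and 1 fell, against 2.17% and 1.58% of all genes. By unadjusted p under 0.05, 3 were higher and 1 lower, against 16.7% of all genes in either direction. The median was 0.19, and 0.01 over all genes. Pank1, a pantothenate kinase at the first step of synthesis, read 373, 370 and 371 units in siMnSOD and 204, 205 and 183 in siScramble (log2 difference 0.91, SE 0.10, adjusted p = 0.00809). Its relative Pank2 had 0.59 (SE 0.11, adjusted p = 0.035). Vnn3, a pantetheinase gene of the breakdown path, read 28.6, 23.3 and 40.4 units in siMnSOD and 69.1, 77.9 and 151 in siScramble (−1.64, SE 0.33, adjusted p = 0.0497). None of these 3 genes had overlapping groups, which also held for 20.9% of all genes. Pank1 lost its call without siMnSOD replicate 2 (adjusted p = 0.0629). Pank2 lost it without replicate 1 or 2 of either group (0.135 to 0.176), after centring (0.0842) and with every probe set tested (0.0627). Vnn3 lost it without any array except siScramble replicate 3 (0.0636 to 0.212) and with every probe set tested (0.0826).

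PPARalpha and its target genes included 1 fall. Of 35 measured genes, 1 fell and none rose in limma, against 1.58% and 2.17% of all genes. At an unadjusted p under 0.05, 3 were higher and 3 lower (16.7% of all genes), and the median was 0.06. With the replicate block, which called 7.14% of all genes and 623 of 19938 lower, 3 fell. The others were Ppargc1a, a coactivator gene (−0.60, adjusted p = 0.0368), and Plin2, a lipid droplet coat gene (−0.65, adjusted p = 0.0342). The gene that fell was Txnip (−2.79, SE 0.12), which encodes a thioredoxin-binding protein and has regulators besides this receptor. The closest after it were Crat, the carnitine acetyltransferase (0.42, SE 0.10, adjusted p = 0.0741), and Hadhb, a trifunctional protein subunit (0.53, SE 0.15, adjusted p = 0.126). Without siScramble replicate 3 both passed (adjusted p = 0.037 and 0.0102), as did Plin2 (0.013), which also passed after quantile normalization (0.0489). None of 21 mitochondrial fatty acid oxidation genes was called in limma, against 3.75% of all genes. At an unadjusted p under 0.05, 5 were higher and 1 lower. Of all genes 16.7% had such a p in either direction, and 1717 of 19938 were higher. The list median was 0.22, and 19 of the 21 differences were positive, against 10421 of 19938 genes. This lean was not tested. Acad10 passed at −0.60 with the replicate block and was −0.37 without siScramble replicate 3. Acadm (0.35) and Acads (0.38) were next to Hadhb by p.

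None of 18 peroxisomal oxidation genes was called either, against 3.75% of all genes. At an unadjusted p under 0.05, 2 were higher and 1 lower, against 16.7% of all genes, and the median was 0.14. Acox2, the branched-chain acyl-CoA oxidase, read 27.9, 30.6 and 55.8 units in siMnSOD and 134, 139 and 47.5 in siScramble, so that replicate 3 did not show the difference of the other pairs. Its fitted difference was −1.41 (adjusted p = 0.178), and it passed without siScramble replicate 3 (−1.91, adjusted p = 0.0128). Nudt19 had 0.46 (SE 0.17, adjusted p = 0.228 in limma). Among 9 acyl-CoA binding protein genes none was called in limma, against 3.75% of all genes. The list median was −0.17, and 3 of the 9 differences were positive, against 10421 of 19938 genes. At an unadjusted p under 0.05, 2 were higher and none lower. Of all genes 16.7% had such a p in either direction, and 1717 of 19938 were higher. Dbi, the acyl-CoA binding protein, read 836, 896 and 454 units against 362, 342 and 280 (1.10, SE 0.27, adjusted p = 0.083, or 0.0174 without siMnSOD replicate 3 and 0.0491 after quantile normalization). Fabp5, a fatty acid binding protein, had 1.65 (SE 0.59, adjusted p = 0.217). Both passed with the replicate block (adjusted p = 0.0264 and 0.0159), which called 7.14% of all genes. Fabp5 was 1.01 without siScramble replicate 3. Acbd4, next by p, had −0.21 (SE 0.11, adjusted p = 0.437 in limma).

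**Figure D4:**
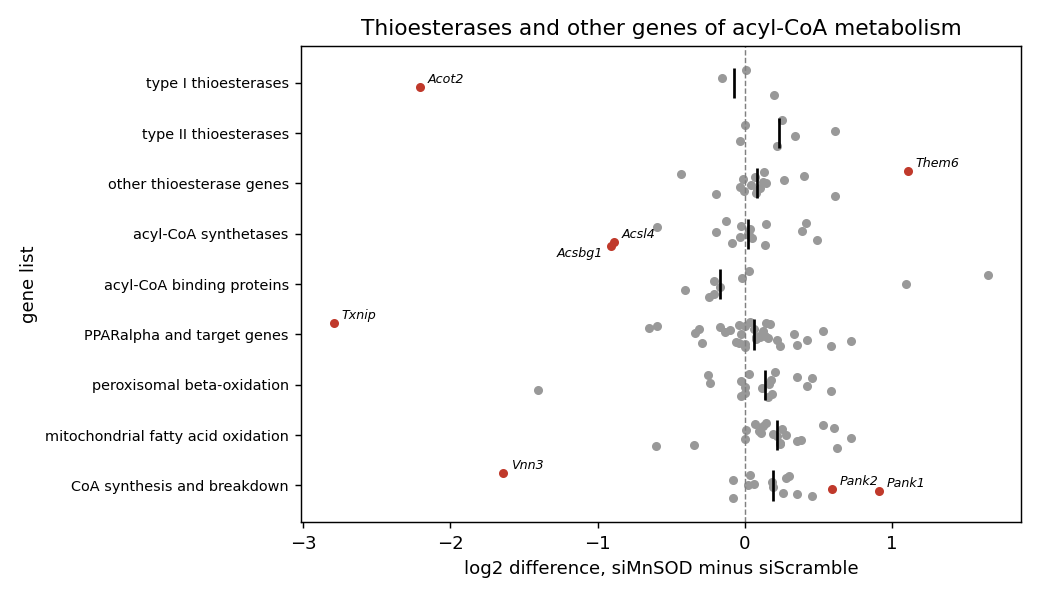
Log2 difference, siMnSOD minus siScramble, of every measured gene in 9 lists of acyl-CoA metabolism, with list medians as vertical bars. Red points are named genes with an adjusted p under 0.05 in limma: Acot2, Them6, Acsl4, Acsbg1, Txnip, Vnn3, Pank1 and Pank2.

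The genes most like Acot2 over the 6 arrays, by Pearson correlation of log2 intensity, were Saa3 (r = 0.9995), Kcmf1 (0.9991), Abcc4 (0.9991), Atg12 (0.9982) and Hspa9 (0.9980). With 6 arrays in 2 groups, any gene with a clear gap between the groups has a value near 1 or −1. Saa3, an acute phase protein gene, read 51.4, 59.8 and 66.1 units in siMnSOD and 640, 676 and 581 in siScramble. The siScramble arrays had the same order for Saa3 and Acot2, but the siMnSOD arrays did not. Saa3 was picked by its correlation with Acot2 over these same arrays, so a shared order is no separate evidence. The differences were −3.42 for Saa3, −1.20 for the export pump gene Abcc4, −0.61 for the mitochondrial chaperone gene Hspa9, −0.57 for the autophagy gene Atg12 and −0.23 for the ubiquitin ligase gene Kcmf1, which was not called (adjusted p = 0.272 in limma). Atg12 and Hspa9 lost their calls after centring arrays on their medians (adjusted p = 0.105 and 0.0845) and without several single arrays (highest 0.136 and 0.125).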

How the data were processed

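RNA of 3 siMnSOD and 3 siScramble samples was measured on 1 Affymetrix array each. The authors deposited a normalized intensity, not log transformed, for each probe set on each array. RMA is named per the submitters' processing notes and MAS5 scaling per the labels' design text, and versions are not given in the sources. The number of arrays limits the precision.

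Of 35557 probe sets, 21789 had exactly 1 symbol, 1621 several and 12147 none in a platform annotation. Symbols were updated through Entrez identifiers (21698 matched) with a RefSeq table of GRCm38.p6, used for names and gene order. Genes took their brightest probe set, and probe sets with several symbols were tested but never named, giving 21559 rows. The log2 of each intensity was modelled by group alone in limma 3.58.1 (lmFit and eBayes, R 4.3.3). Benjamini-Hochberg adjustment ran over all rows, and genes under 0.05 were called. Differences are siMnSOD minus siScramble, with standard errors and 95% intervals of the fit. Scripts were tested on simulated data. An exact two-sided permutation test cannot go below 0.1 with 3 against 3 arrays, and gave 0.1 for Acot2, Acot7 and Sod2.

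The members, lists, motifs and naming rule were chosen with earlier results of these data known. The rule named every member, Sod2, other thioesterase genes above background or called, called genes and up to 3 of smallest p per list, called neighbours, and the 5 genes most like Acot2. Same-numbered arrays deviated together (r = 0.30, 0.29 and 0.56) and were taken as pairs, though the labels do not say what the numbers mark. Deviations of siMnSOD replicate 1 followed siScramble replicate 2 more closely (0.47), and those of siMnSOD replicate 2 siScramble replicate 1 (0.41). These values therefore single out only replicate 3 as a match by number. Alternatives were 2 scalings, the replicate block, other probe set choices, a background filter, other variance models, array weights and leaving out arrays.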

Additional observations from a re-analysis of the deposited data

How the results depend on the processing

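Acot2 kept its direction and its call under all 15 alternatives, with differences from −2.31 to −2.12 and adjusted p from 6.51e-06 to 0.0183. With the replicate number as a block its adjusted p was 0.00616, and the block left every other member uncalled and changed, of the genes named elsewhere, only the calls given beside them, while it raised the calls over all genes from 432 to 801 higher and from 316 to 623 lower. The count of called members was 4 with array weights and with replicates 1 and 2 only (chosen after seeing the data), and 1 to 2 when single arrays were left out, Acot7 being the gene added without siScramble replicate 3. Calls over all genes were 278 higher and 154 lower with every probe set tested, 365 and 140 after centring arrays on their medians, 2486 and 2188 with array weights, 2343 and 1932 with replicates 1 and 2 only, and 52 to 1119 higher and 25 to 1119 lower without single arrays. Higher and lower were lowest without siMnSOD replicate 2 and highest without siScramble replicate 3. The cause of these moves was not tested. Sod2 lost its call after centring (−1.54, adjusted p = 0.0688) and with every probe set tested (−1.63, adjusted p = 0.0631). Without single arrays its difference ran from −1.88 to −1.27, and the call ended without replicate 1 or 2 of either group (highest adjusted p 0.133).

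Members near 0 changed sign without being called. Acot4 was −0.12 with array weights, −0.10 with replicates 1 and 2 only and −0.073 to 0.11 without single arrays. Acot8 was 0.085 after centring, 0.020 after quantile normalization, 0.018 with array weights, 0.046 with replicates 1 and 2 only and −0.064 to 0.048 without single arrays. Acot9 was −0.078 and −0.074, and Acot10 −0.029 and −0.052, with array weights and with replicates 1 and 2 only, and Acot9 ran from −0.18 to 0.49 without single arrays. Acot11 was 0.051 after centring, 0.032 after quantile normalization and −0.22 to 0.14 without single arrays. With the median of olfactory receptor genes as the guide, 9 instead of 8 members were above background on all arrays.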
